A study of Mus musculus with 8 samples.

Results

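Nuclear-encoded genes of oxidative phosphorylation were examined in tibialis anterior (TA) muscles of mice that had received siRNAs against *Uba1*, which encodes the enzyme that activates ubiquitin for most ubiquitination in the cell. The genes were taken by symbol, namely every gene beginning with Nduf followed by a, b, c, s or v, the 4 succinate dehydrogenase genes, and every gene beginning with Uqcr, with Cox and a digit from 4 to 8, or with Atp5. These symbols gave 96 of the 41709 genes in the table, with 1 pseudogene left out. They comprised 38 genes of complex I, 8 complex I assembly factors, 4 genes of complex II, 8 of complex III, 19 of complex IV, 18 of complex V, and *Cox7a2l*. The last is known for a role in joining complexes into supercomplexes, which was not examined in these mice. The mice were 3-month-old C57BL/6J males. Each of 4 mice gave 1 TA muscle electroporated with a pool of 4 *Uba1* siRNAs (siUBA1) and the contralateral TA with control non-targeting (NT) siRNAs (siNT), both at 1500 pmol, and muscles were taken after 7 days. The titles of all NT muscles begin with RTA and those of all *Uba1* muscles with LTA, read here as right and left leg, so leg and siRNA cannot be told apart. The sample titles and descriptions name UBA1 for all 4 treated muscles, whereas the treatment tags of replicates 2, 3 and 4 read UBA2, UBA3 and UBA4, and the descriptions were followed here.

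Oxidative phosphorylation makes most of the ATP of resting and endurance-type muscle. Complex I takes electrons from NADH and complex II from succinate, complex III passes them from ubiquinol to cytochrome c, and complex IV hands them to oxygen. Complexes I, III and IV pump protons across the inner mitochondrial membrane, and complex V, the ATP synthase, uses their return. Every complex but complex II is built from subunits of both the nuclear and the mitochondrial genome. Several complex IV subunits exist as isoforms, with a form typical of heart and skeletal muscle beside one found in most tissues.

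Expression was deposited as TPM, a transcript abundance that is divided by gene length and sums to the same total in each muscle, so the depth behind a value is unknown and levels can be compared between genes. Differences were tested with limma on log2(TPM + 1) over 11530 genes, those that reached 1 TPM in 4 or more muscles. A log2 fold change (log2FC) is that of *Uba1* over NT siRNAs and, with 1 added to each value, is too small for weakly expressed genes. The mRNA of *Uba1* itself was at 60.6, 59.0, 63.6 and 59.1 TPM in the NT muscles of replicates 1 to 4. It was at 18.1, 6.77, 15.8 and 23.1 TPM with *Uba1* siRNAs, so the groups did not overlap (exact permutation test, two-sided, p = 0.0286, the smallest that 4 against 4 muscles allow). Its limma adjusted p (Benjamini-Hochberg) was 0.0527, and 0.0278 when the 2 legs of a mouse were paired. The median log2FC of all genes tested was 0.11 with the TPM as deposited and 0.00 after median-ratio scaling, so values below are set beside that median. In 2 muscles with *Uba1* siRNAs the members stood apart, replicate 1 in the TPM as deposited and replicate 3 relative to all genes, and values without them are given below. In bulk muscle, fewer cells of a type and less RNA per cell cannot be told apart.

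Most of the 96 genes were abundant. Over the 8 muscles, 74 of them had a mean of 100 TPM or more and 4 had 1000 TPM or more. These 4 were *Cox6a2* and *Cox8b*, the muscle isoforms of complex IV, and *Atp5a1* and *Atp5b*, the alpha and beta subunits of the catalytic head of ATP synthase. Together the 96 genes took 3.02% ± 0.058 (SD) of all TPM in the 4 NT muscles and 3.03% ± 0.168 in the 4 *Uba1* muscles. The summed level was 30358, 30426, 30749 and 29402 TPM in the NT muscles of replicates 1 to 4. It was 32803, 29530, 29416 and 29403 TPM with *Uba1* siRNAs, so that replicate 1 was above every other muscle and the other 3 lay at the lower end of the NT range. That order depends on the mitochondrial transcripts in the TPM total. As a share of the TPM without those of all mitochondrially encoded genes, the members took 5.59%, 5.42%, 5.31% and 5.17% in the NT muscles and 5.49%, 5.95%, 4.89% and 5.50% in the *Uba1* muscles, so that replicate 2 was highest, replicate 3 lowest and replicate 1 within the NT range. Of the summed level, complex I took 29.6% and 29.8% with NT and *Uba1* siRNAs, complex II 4.50% and 4.70%, complex III 13.0% and 12.9%, complex IV 27.1% and 26.5%, and complex V 24.8% and 24.9%. The plot of levels by complex shows the 91 genes that passed the filter on low values.

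**Figure D1:**
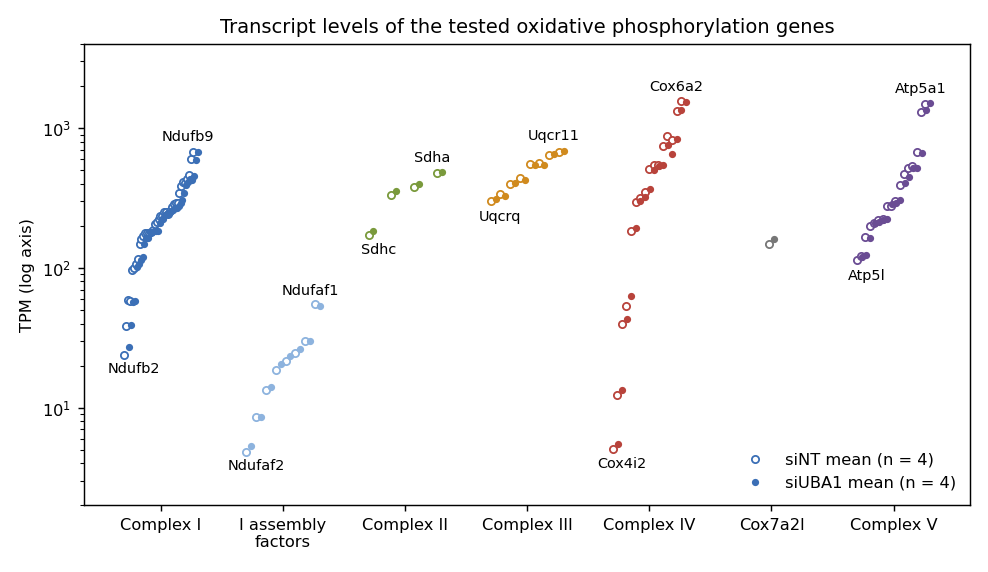
Mean TPM (log axis) of each of the 91 tested genes, ordered within its complex, with open circles for NT siRNAs and filled circles for *Uba1* siRNAs (n = 4 muscles each). The highest and lowest gene of each complex are named, from *Cox6a2* at a mean of 1543 TPM to *Ndufaf2* at 5.09 TPM, and the circles of most genes lie close together, with *Cox6b1* at 878 and 652 TPM as an exception.

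The other 5 genes were not tested. *Ndufb11b* and *Cox8c* were listed at 0 in every muscle and *Cox7b2* reached at most 0.125 TPM. *Cox6b2*, the testis form of *Cox6b1*, ranged from 0.175 to 0.734 TPM. *Atp5o_1*, the weaker of a pair of rows that share the symbol *Atp5o*, ranged from 0.358 to 1.22 TPM.

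No member passed an adjusted p of 0.05 (limma, Benjamini-Hochberg), with or without pairing of the legs, beside 0.026% of all genes tested without pairing and 0.494% with it. At an unadjusted p of 0.05, 0 of the 91 members were higher with *Uba1* siRNAs, against 16% of all genes, and 1 was lower, against 1.98% of all genes. The 1 lower gene was *Cox6b1*. Of the 636 genes tested with a mean of 100 TPM or more, 37 were higher and 9 lower at an unadjusted p of 0.05. All 4 muscles with *Uba1* siRNAs were below all 4 NT muscles for *Cox6b1* alone, against 1.01% of all genes, and above them for 2 members, *Ndufb2* and *Sdhc*, against 10.6% of all genes.

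The members were tightly grouped. Their median log2FC was 0.02, the interquartile range was -0.01 to 0.06, and 62 of 91 were above 0. For all genes tested, it was 0.03 to 0.18, and 81.8% were above 0. The absolute log2FC was under 0.2 for 97.8% of the members and for 75.1% of all genes. The 95% interval lay within 0.58 of 0 on the log2 scale for 90 of the 91 members, *Cox6b1* being the exception, and for 85.7% of all genes. It did so for 570 of the 636 genes at 100 TPM or more. The median standard error was 0.072 for the members, 0.091 for those 636 genes and 0.097 for all genes. The level differed too, with a median of 253 TPM for the tested members and 7.28 TPM for all genes. Between muscles of a group, the SD of a member's log2 level had a median of 0.055 with NT siRNAs and 0.112 with *Uba1* siRNAs, compared to 0.116 and 0.147 for all genes.

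Set against all genes, the members sat low. 82 of the 91 had a log2FC below the all-gene median, and their own median minus the all-gene median was -0.08. Leaving out the *Uba1* siRNA muscle of replicate 3 brought this gap to -0.04 (-0.05 for complex I, 0.03 for complex II, -0.07 for complex III, -0.03 for complex IV and -0.04 for complex V), and leaving out replicate 1 to -0.11. It was -0.03 with no filter on low values and -0.02 with quantile normalization. In each muscle, the median deviation of the members from their mean over all muscles, minus that of all genes, was -0.16 in the *Uba1* muscle of replicate 3 and between -0.03 and 0.06 on the log2 scale in the other 7. The 636 genes at 100 TPM or more, which include most members, had a median log2FC of 0.03, close to that of the members. The sign of the members' log2FC followed the scaling. After median-ratio scaling their median was -0.10, 6 of 91 were above 0, and 16 were lower at an unadjusted p of 0.05, beside 6.18% of all genes, with 0 past the adjusted p (limma, Benjamini-Hochberg). In that scaling the 636 abundant genes had a median of -0.09, and 13.7% of them were lower at that p, compared to 17.6% of the members. Without the *Uba1* siRNA muscle of replicate 1, the TPM as deposited gave the members a median of -0.03, with 32 of 91 above 0, and all genes a median of 0.08.

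**Figure D2:**
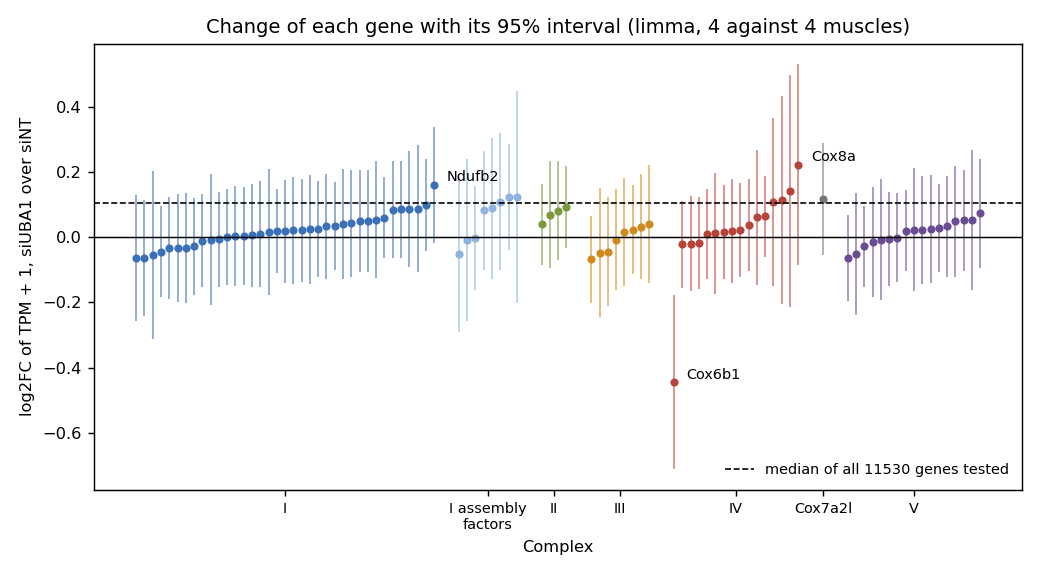
The log2FC of each tested gene (points) with its 95% interval from limma (bars), 4 muscles with *Uba1* siRNAs against 4 with NT siRNAs, ordered within each complex. *Cox6b1* at -0.44 stands below all others, the next lowest being *Uqcrc1* at -0.07, and the dashed line is the all-gene median of 0.11.

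Mouse by mouse, the difference between the legs varied in sign. The median log2 difference between the *Uba1* and the NT leg was 0.15 in replicate 1, where 85 of the 91 members were higher with *Uba1* siRNAs. It was -0.02 in replicate 2 (40 higher), -0.05 in replicate 3 (19 higher) and 0.01 in replicate 4 (49 higher). For all genes the same medians were 0.19, 0.03, 0.15 and 0.04. Of the 91 members, 9 were higher with *Uba1* siRNAs in all 4 mice, against 32.2% of all genes, and 1, *Cox6b1*, was lower in all 4, against 2.98% of all genes. The plot of differences between the legs shows complexes I, III, IV and V with the mice in the same order, replicate 1 highest and replicate 3 lowest, and complex II above 0 in 3 of the 4 mice.

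**Figure D3:**
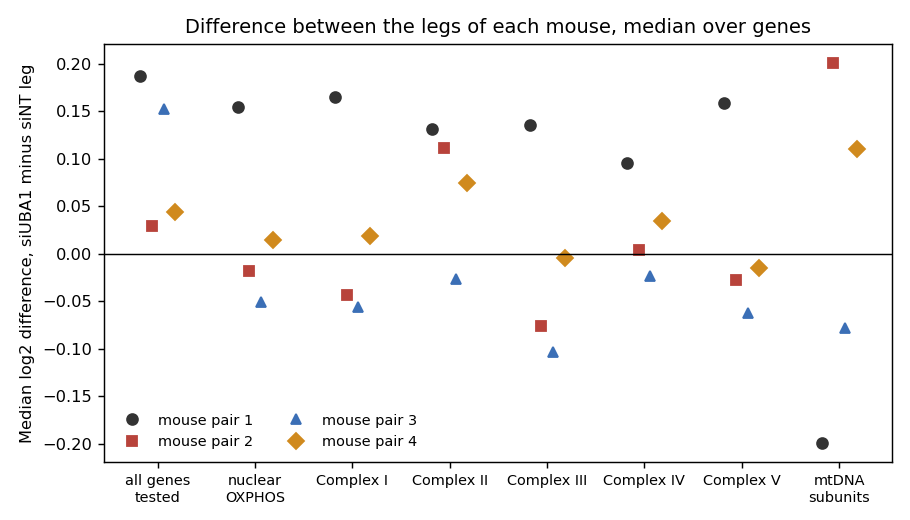
Median log2 difference between the leg with *Uba1* siRNAs and the leg with NT siRNAs of each of the 4 mice, over all genes tested, all nuclear members, each complex and the 13 subunits encoded by mitochondrial DNA (mtDNA). The nuclear members ranged from -0.05 to 0.15 and the mtDNA subunits from -0.20 to 0.20.

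Complex I, the NADH dehydrogenase, was tested through 37 genes. Their median log2FC was 0.02, 26 were above 0 and 11 below, and 36 of 37 were under the all-gene median. Without the *Uba1* siRNA muscle of replicate 1 the median was -0.03, with 10 above 0 and 27 below. After median-ratio scaling it was -0.10, with 1 above 0 and 36 below, of which 8 were lower at an unadjusted p of 0.05. At that p and in that scaling, 6.18% of all genes and 13.7% of the 636 abundant genes were lower. The NADH-oxidizing N module (11 genes) had a median of 0.02, the ubiquinone-binding Q module (5 genes) 0.02, and the membrane arm with the remaining subunits (21 genes) 0.00. The most abundant was *Ndufb9*, a membrane-arm subunit, at 676 ± 22.2 and 677 ± 42.2 TPM under NT and *Uba1* siRNAs (SD, n = 4 muscles each), with a log2FC of 0.00. The lowest log2FC of the complex, -0.06 ± 0.086 (standard error), was that of *Ndufs5*, an accessory subunit of the membrane arm. The adjusted p of *Ndufs5* was 0.687 (limma, Benjamini-Hochberg). Apart from *Ndufs5* and *Ndufb2*, the subunits of the complex lay between -0.06 for *Ndufc1* and 0.10 for *Ndufa3*, both of the membrane arm.

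*Ndufb2* (GRCm39, chromosome 6, 39569490 to 39595671, plus strand), another accessory subunit of the membrane arm, had both the lowest level and the highest log2FC among the tested genes of complex I. It was at 24.5, 24.6, 23.2 and 23.5 TPM in the NT muscles of replicates 1 to 4 and at 31.5, 25.7, 25.8 and 25.0 TPM in the *Uba1* muscles. All 4 *Uba1* muscles were above all NT muscles, by little except in replicate 1. The log2FC was 0.16 ± 0.079 (standard error; adjusted p = 0.317, limma, Benjamini-Hochberg), and was 0.09 without the *Uba1* siRNA muscle of replicate 1 and 0.04 after median-ratio scaling. Of its annotated exon bases, 10.4% are shared with exons of other genes, *Braf* among them. The 8 assembly factors of complex I, *Ndufaf1* to *Ndufaf8*, help to build the complex and are not part of it. They were expressed at lower levels, from 5.09 TPM for *Ndufaf2* to 54.0 TPM for *Ndufaf1*, and had a median log2FC of 0.09, with 5 above 0, 3 below 0 and none past an unadjusted p of 0.05. Their median was 0.02 without the *Uba1* siRNA muscle of replicate 1, and -0.03 after median-ratio scaling, with 2 above 0 and 6 below.

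Complex II, the succinate dehydrogenase that also serves the citric acid cycle, is encoded by the nucleus alone. *Sdha*, the flavoprotein that oxidizes succinate, was at 475 ± 11.7 TPM in the NT muscles and 488 ± 14.6 TPM in the *Uba1* muscles (mean ± SD, n = 4 each; log2FC 0.04). *Sdhb*, the iron-sulfur subunit, was at 334 ± 13.3 and 353 ± 23.5 TPM (log2FC 0.08). *Sdhd*, a membrane anchor, was at 378 ± 14.4 and 398 ± 34.0 TPM (log2FC 0.07, and 0.01 without the *Uba1* siRNA muscle of replicate 1). *Sdhc*, the other membrane anchor (chromosome 1, 170954732 to 170978223, minus strand), was at 176, 175, 170 and 171 TPM in the NT muscles and at 196, 184, 177 and 181 TPM in the *Uba1* muscles. All 4 *Uba1* muscles exceeded the NT muscles for *Sdhc*, by 0.09 ± 0.056 (log2FC and standard error; adjusted p = 0.386, limma, Benjamini-Hochberg). All 4 genes of complex II had a log2FC above 0 and below the all-gene median, and all 4 stayed above 0 without the *Uba1* siRNA muscle of replicate 1 (median 0.05). After median-ratio scaling all 4 were below 0 with a median of -0.05, so the direction depended on the scaling. Their median was above the all-gene median, by 0.03 on the log2 scale in each case, with no filter on low values, with quantile normalization and without the *Uba1* siRNA muscle of replicate 3.

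Complex III, the cytochrome bc1 complex, was covered by 8 genes with mean levels between 308 and 684 TPM. Their median log2FC was 0.00, with 4 above and 4 below 0. Without the *Uba1* siRNA muscle of replicate 1 it was -0.05, with 1 above and 7 below. After median-ratio scaling all 8 were below 0 with a median of -0.12, and 3 were lower at an unadjusted p of 0.05. In that scaling 6.18% of all genes and 13.7% of the 636 genes at 100 TPM or more were lower at that p. The small subunits *Uqcr11*, at 680 ± 29.9 and 689 ± 54.1 TPM with NT and *Uba1* siRNAs, and *Uqcr10*, at 639 ± 12.0 and 655 ± 54.6 TPM, were the most abundant. *Uqcrfs1*, the Rieske iron-sulfur protein, was at 551 ± 13.2 and 549 ± 42.9 TPM. *Uqcrq*, a further small subunit and the least abundant, had the highest log2FC of the complex at 0.04. *Uqcrc1*, one of the large core proteins, had the lowest at -0.07 ± 0.059 (standard error; adjusted p = 0.534, limma, Benjamini-Hochberg). It was at 351, 344, 345 and 322 TPM in the NT muscles and 339, 313, 316 and 331 TPM in the *Uba1* muscles, so the groups overlapped.

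Complex V, the ATP synthase, was tested through 17 genes, with a median log2FC of 0.02, 10 above 0 and 7 below. Without the *Uba1* siRNA muscle of replicate 1 the median was -0.04, with 4 above 0 and 13 below. After median-ratio scaling all 17 were below 0 with a median of -0.10, and 3 were lower at an unadjusted p of 0.05. Beside these, 6.18% of all genes and 13.7% of the 636 abundant genes were lower at that p in that scaling. *Atp5a1* was at 1480 ± 13.1 and 1502 ± 31.8 TPM with NT and *Uba1* siRNAs, and *Atp5b* at 1314 ± 40.5 and 1341 ± 44.6 TPM (SD, n = 4 muscles each). Their log2FC was 0.02 and 0.03. The 5 genes of the catalytic head had a median log2FC of 0.03, the 4 tested genes of the peripheral stalk 0.01, the 3 genes of the c ring -0.01 and the 5 small membrane subunits 0.02. *Atp5l*, a small membrane subunit, was the least abundant of the tested genes at 114 ± 2.86 and 119 ± 11.9 TPM. The lowest log2FC, -0.06, was that of *Atp5o_2*, which encodes the stalk subunit that confers sensitivity to oligomycin, and the highest, 0.07, that of *Atp5g1*. Neither passed the test (adjusted p = 0.560 for *Atp5o_2* and 0.597 for *Atp5g1*, limma, Benjamini-Hochberg). The log2FC of *Atp5g1* was 0.03 without the *Uba1* siRNA muscle of replicate 1 and likewise 0.03 without the NT muscle of replicate 4.

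Complex IV, the cytochrome c oxidase, held both ends of the range. Its 16 tested genes had a median log2FC of 0.02, with 12 above and 4 below 0. Without the *Uba1* siRNA muscle of replicate 1 it was -0.01, with 7 above and 9 below. After median-ratio scaling it was -0.10, with 3 above and 13 below, and 2 were lower at an unadjusted p of 0.05. The shares lower at that p in that scaling were 6.18% of all genes and 13.7% of the 636 abundant genes. *Cox6b1* encodes a small subunit on the side of the complex that faces the intermembrane space, where cytochrome c docks. Its mRNA was at 865, 884, 939 and 825 TPM in the NT muscles of replicates 1 to 4. With *Uba1* siRNAs it was at 758, 511, 621 and 716 TPM. Every *Uba1* muscle was below every NT muscle, and the difference was widest in replicate 2, the muscle with the lowest *Uba1* mRNA, and narrowest in replicate 1. The highest *Uba1* mRNA of the treated muscles was in replicate 4, at 23.1 TPM, beside 18.1 TPM in replicate 1. Whether the levels of these mRNAs are linked was not tested.

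The log2FC of *Cox6b1* was -0.44 (standard error 0.119, 95% interval -0.71 to -0.18, limma), a level 0.735 times that of the NT muscles. Its unadjusted p was 0.00437 and its adjusted p 0.161 (Benjamini-Hochberg over all genes tested), so it did not pass. Over all 17 alternatives tried, the adjusted p of *Cox6b1* ranged from 0.088 to 0.354 (limma or Kruskal-Wallis, Benjamini-Hochberg), and over the 16 with a fitted value its log2FC ranged from -0.57 to -0.33. It was the lowest member in all 16. Among all genes tested, 192, or 1.67%, had a log2FC as low or lower.

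The difference was also seen within the complex, where the scaling of a muscle cancels. *Cox6b1* made up 10.6%, 10.5%, 11.4% and 10.4% of the summed complex IV TPM in the NT muscles of replicates 1 to 4 and 8.94%, 6.42%, 8.05% and 9.07% in the *Uba1* muscles. The remaining complex IV genes summed to 7300 ± 165 TPM in the 4 NT muscles and to 7365 ± 284 TPM in the 4 *Uba1* muscles (mean ± SD). *Cox6b1* shares none of its exon bases with another gene in the GENCODE M39 annotation, where it lies on the minus strand of chromosome 7 (GRCm39, 30316282 to 30325616).

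**Figure D4:**
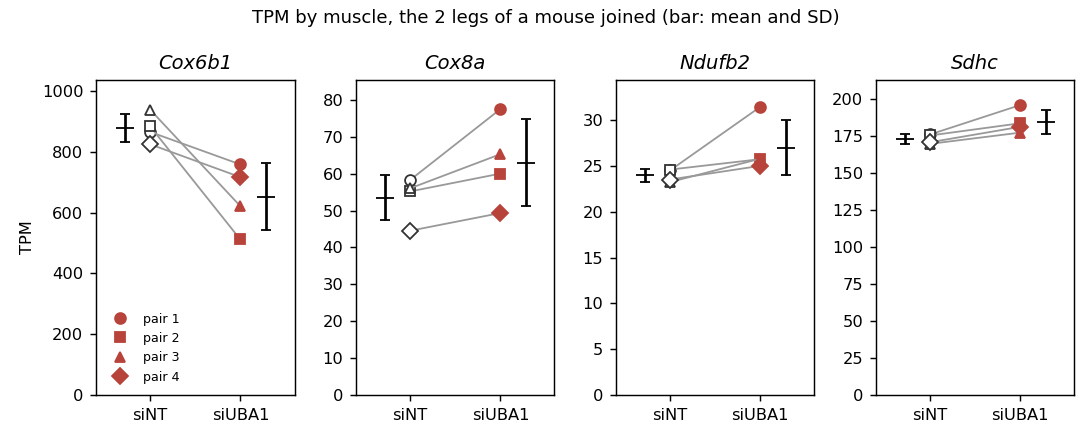
TPM of *Cox6b1*, *Cox8a*, *Ndufb2* and *Sdhc* in each muscle, with the legs of a mouse joined by a line and the mean and SD of each group as bars beside the points (n = 4 muscles each). *Cox6b1* lay between 825 and 939 TPM with NT siRNAs and between 511 and 758 TPM with *Uba1* siRNAs, lower in all 4 mice, and the other 3 genes were higher with *Uba1* siRNAs in all 4 mice.

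*Cox8a*, the form of subunit 8 found in most tissues (chromosome 19, 7192515 to 7194997, minus strand), had the highest log2FC of all members. It was at 58.3, 55.2, 56.0 and 44.5 TPM in the NT muscles and at 77.5, 60.0, 65.3 and 49.3 TPM in the *Uba1* muscles. It was higher in the *Uba1* leg of all 4 mice, but the groups overlapped, since replicate 4 was low in both legs. The log2FC was 0.22 ± 0.137 (standard error; unadjusted p = 0.139, adjusted p = 0.391, limma, Benjamini-Hochberg). With the legs paired the unadjusted p was 0.017 and the adjusted p 0.138. The log2FC of *Cox8a* was 0.12 without the *Uba1* siRNA muscle of replicate 1, 0.14 without the NT muscle of replicate 4 and 0.10 after median-ratio scaling. Among the remaining subunits, the structural subunits *Cox5a* and *Cox5b* had a log2FC of 0.02 and 0.06, the small subunits *Cox6c* 0.06, *Cox7b* -0.02 and *Cox7c* -0.02. *Cox7a2l*, the supercomplex factor, was at 148 ± 3.17 and 161 ± 16.5 TPM with NT and *Uba1* siRNAs (log2FC 0.12, adjusted p = 0.410, limma, Benjamini-Hochberg), and its log2FC was 0.05 without the *Uba1* siRNA muscle of replicate 1.

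The isoform pairs were compared through the ratio of TPM + 1 within a muscle, in which the scaling of a muscle cancels except for the 1 added, and which lies nearer to 1 than the ratio of the levels for weakly expressed genes such as *Cox4i2*. *Cox6a2* was at 1554 ± 70.7 and 1532 ± 61.9 TPM with NT and *Uba1* siRNAs, and *Cox6a1*, its counterpart in most tissues, at 39.8 ± 5.97 and 43.2 ± 7.58 TPM. *Cox8b* was at 1329 ± 48.5 and 1343 ± 62.0 TPM, well above *Cox8a*, although 51.5% of its annotated exon bases are also exons of *Psmd13* on the other strand. *Cox7a1*, the muscle form of subunit 7a, was at 827 ± 32.6 and 841 ± 42.6 TPM and *Cox7a2* at 296 ± 16.3 and 299 ± 30.0 TPM. Thus the muscle form led in all 8 muscles for each of these subunits, by the widest margin for 6a and the narrowest for 7a. *Cox4i1*, the common form of subunit 4, was at 744 ± 31.9 and 763 ± 32.8 TPM, and *Cox4i2*, known from lung and other oxygen-sensing tissues, was the least abundant tested gene of the complex at 5.10 ± 0.890 and 5.53 ± 0.474 TPM.

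None of the 7 ratios between isoforms passed an exact permutation test between the groups (two-sided, Benjamini-Hochberg over the 7 pairs, adjusted p from 0.8 to 1). With 4 against 4 muscles the smallest adjusted p of a single ratio is 0.2, and 5 of the 7 would have to reach the smallest p for any to pass, so this test says little about them. The ratio of *Cox6a2* to *Cox6a1* was 38.4-fold with NT and 35.1-fold with *Uba1* siRNAs. Between the legs it differed by -0.30, 0.02, -0.02 and -0.23 on the log2 scale in replicates 1 to 4. The ratio of *Cox8b* to *Cox8a* was 24.5-fold and 21.2-fold, a difference of -0.21 on the log2 scale that had the same sign in all 4 mice. It was -0.10 without the *Uba1* siRNA muscle of replicate 1, -0.12 without the NT muscle of replicate 4 and -0.34 without the *Uba1* siRNA muscle of replicate 4. That of *Cox7a1* to *Cox7a2* was 2.79-fold and 2.81-fold. *Ndufa4l2*, a paralog induced by low oxygen, lay far below *Ndufa4*, a subunit now assigned to complex IV, with a log2 ratio of -5.38 ± 0.362 and -5.25 ± 0.084 (SD, n = 4 muscles each). Of the exon bases of *Ndufa4l2*, 63.3% are shared with *Shmt2* on the other strand. In the c ring of ATP synthase, whose 3 genes encode the same mature protein, *Atp5g3* was the most abundant. The log2 ratio to it was -1.38 ± 0.080 and -1.30 ± 0.056 for *Atp5g1* with NT and *Uba1* siRNAs, and -1.23 ± 0.099 and -1.22 ± 0.055 for *Atp5g2*. The difference for *Atp5g1*, 0.08, also had the same sign in all 4 mice and was 0.05 without the NT muscle of replicate 3.

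**Figure D5:**
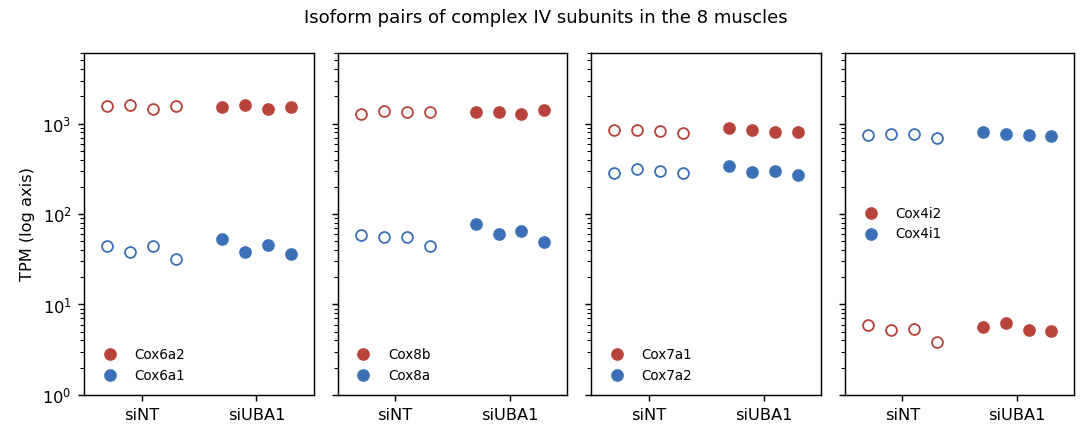
TPM (log axis) of 4 isoform pairs of complex IV subunits in each of the 8 muscles, open circles for NT siRNAs and filled circles for *Uba1* siRNAs. *Cox6a2*, *Cox8b*, *Cox7a1* and *Cox4i1* lie above their partners in every muscle, and the groups overlap for all 8 genes.

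The promoters of the subunit 6a pair and of *Cox6b1* are shown because the 6a pair had the widest margin of a muscle isoform over its partner and *Cox6b1* the widest difference between the groups. Each sequence holds the 250 bases before the first annotated base of the gene (GRCm39, GENCODE M39), 5′ to 3′ on the strand of the gene, which is the minus strand for all 3. They lie at chr7:30325617-30325866 for *Cox6b1*, chr7:127805560-127805809 for *Cox6a2* and chr5:115487051-115487300 for *Cox6a1*, where 60 bases are also exons of the lncRNA gene *A430102K17Rik*. Capitals mark matches on either strand to letters bound by factors known for these genes or for muscle, namely GCATGCGC for NRF1, CCGGAAG for the ETS factor GABPA, AAGATGG for YY1, AAGGTCA for ERR, CTAAAAATA for MEF2 and CAGCTG for myogenic E-box factors. The last 2 were chosen after the sequences were seen.
Cox6b1: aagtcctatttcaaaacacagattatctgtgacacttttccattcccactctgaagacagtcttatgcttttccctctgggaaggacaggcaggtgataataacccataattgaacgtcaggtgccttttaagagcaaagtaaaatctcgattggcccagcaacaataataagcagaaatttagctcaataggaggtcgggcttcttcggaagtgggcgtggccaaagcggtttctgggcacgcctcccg
Cox6a2: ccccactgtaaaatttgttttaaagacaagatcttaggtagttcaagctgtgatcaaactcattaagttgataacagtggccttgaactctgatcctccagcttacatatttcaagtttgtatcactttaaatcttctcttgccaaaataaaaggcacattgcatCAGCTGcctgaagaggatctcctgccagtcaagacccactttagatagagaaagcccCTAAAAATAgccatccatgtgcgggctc
Cox6a1: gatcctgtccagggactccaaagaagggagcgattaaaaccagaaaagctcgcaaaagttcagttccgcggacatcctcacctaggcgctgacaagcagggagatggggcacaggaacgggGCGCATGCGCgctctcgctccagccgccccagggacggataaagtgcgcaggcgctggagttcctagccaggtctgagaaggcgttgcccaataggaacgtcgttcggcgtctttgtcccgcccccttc
The *Cox6a2* sequence held 1 MEF2 match 28 bases and 1 E-box 85 bases before the start, had 1 CG dinucleotide and was 40.8% G or C. The *Cox6a1* sequence held 2 overlapping NRF1 matches, the first of which begins 129 bases before the start, had 20 CG dinucleotides and was 60.4% G or C. The *Cox6b1* sequence held no match to any of the 6 motifs.

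The same letters were searched in windows of 300 bases, 250 before and 50 after the canonical start, of 21770 protein-coding genes and of 90 of the tested members. NRF1 letters were found in 11.1% of the members' windows and in 3.68% of all windows, YY1 letters in 12.2% and 5.74%, ERR letters in 8.89% and 4.48%, and ETS letters in 16.7% and 10.3%. Among the 10875 protein-coding genes tested the shares were 4.97%, 6.53%, 3.65% and 15.8%, so that for ETS letters the members were close to other expressed genes. E-box letters were found in 14.4% and 14.9%, and MEF2 letters in 1.11%, which is *Cox6a2* alone, and 0.459%. By complex, NRF1 letters were found in 2 of 37 windows of complex I, 1 of 4 of complex II, 1 of 8 of complex III, 1 of 16 of complex IV and 3 of 16 of complex V. A match is a stretch of letters and not a measured binding site.

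The 13 subunits encoded by mitochondrial DNA, which are assembled with the nuclear ones, took 43.3% ± 1.52 (SD) of all TPM in the 4 NT muscles and 43.8% ± 5.02 in the 4 *Uba1* muscles. Their summed level was 14.3 ± 0.581 and 14.5 ± 2.13 times that of the nuclear members. In the *Uba1* muscles of replicates 1 to 4 the factor was 12.2, 16.9, 13.4 and 15.7, so that the replicates with *Uba1* siRNAs spread more widely than the NT muscles, at 14.9, 14.3, 13.6 and 14.6. The median mtDNA subunit differed between the legs by -0.20, 0.20, -0.08 and 0.11 on the log2 scale in replicates 1 to 4. Since TPM sum to a constant and these transcripts take much of it, a muscle with more of them has less of the rest. Of the 13, *mt-Nd6* alone passed an unadjusted p of 0.05, from 164 ± 31.9 to 228 ± 35.0 TPM (log2FC 0.47, adjusted p = 0.181, limma, Benjamini-Hochberg), and was named after its value was seen. At that unadjusted p, 16% of all genes were higher. After median-ratio scaling 1 of the 13 was above 0 and 12 were below, and none was higher or lower at that p.

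The genes around the complexes were examined through fixed lists, and none of these genes passed the adjusted p in either fit. At an unadjusted p of 0.05, 16% of all genes were higher. Of the 5 electron carriers and partners outside the symbol rule, 4 were above 0 and 1, *Etfdh*, which feeds electrons from fatty acid oxidation, was higher at that p (log2FC 0.20). With the legs paired 2 of the 5 were higher at that p, beside 22.4% of all genes. After median-ratio scaling 3 of the 5 were above 0. None was then higher at that p, beside 4.43% of all genes, and 1 was lower, beside 6.18%. Of 43 assembly factors tested outside the rule, 37 were above 0 and 2, *Coa7* and *Atpaf2*, were higher at that p (log2FC 0.22 for each). With the legs paired 6 were higher, beside 22.4% of all genes, and after median-ratio scaling 16 were above 0, 27 below and none higher, beside 4.43% of all genes. The 13 citric acid cycle genes had a median log2FC of 0.04, 9 above 0, and none passed. Without the *Uba1* siRNA muscle of replicate 1 their median was below 0 by less than 0.01, with 6 above 0. After median-ratio scaling all 13 were below 0, with a median of -0.08. Of these, 1 was lower at an unadjusted p of 0.05, beside 6.18% of all genes. The list of 19 regulators holds factors that act on nuclear genes of oxidative phosphorylation and, in *Tfam*, *Tfb1m*, *Tfb2m*, *Polrmt* and *Twnk*, proteins that act on mitochondrial DNA. Of the 19, 16 were above 0 and 5 were higher at an unadjusted p of 0.05, or 4 with the legs paired, where *Gabpa* did not pass. These 5 were named after their values were seen. *Ppargc1a*, a coactivator that drives mitochondrial biogenesis, was at 9.10 ± 1.56 and 12.1 ± 0.830 TPM (log2FC 0.39, unadjusted p = 0.00645, adjusted p = 0.168, limma, Benjamini-Hochberg). *Esrrg*, an estrogen-related receptor, had a log2FC of 0.36, *Polrmt*, the mitochondrial RNA polymerase, 0.21, and the GABP subunits *Gabpa* and *Gabpb2* 0.17 each. After median-ratio scaling the median of the regulators was -0.01, with 9 above 0 and 10 below, 1 was higher and 2 were lower at an unadjusted p of 0.05, and *Ppargc1a* stayed above 0 at 0.28.

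The tissue label was checked through markers. All 6 genes of the muscle fibre list were tested, with a median of 14848 TPM and a median log2FC of -0.09, and their summed level ranged from 93485 to 98668 TPM with NT siRNAs and from 73657 to 102629 TPM with *Uba1* siRNAs. *Myh4*, the myosin of the fastest fibres, was at 16945 ± 2710 and 14608 ± 3279 TPM, *Myh1* at 3347 ± 1029 and 4205 ± 1204 TPM, and *Myh2*, the myosin of fast oxidative fibres, at 123 ± 42.6 and 191 ± 101 TPM. None of these passed the test, and *Myh7*, the slow myosin, was at 0.620 and 1.30 TPM and not tested. The slow fibre list (7 of 8 genes tested) had a median log2FC of 0.03. Of the markers of other cells, the median log2FC was 0.03 for the 9 leukocyte genes tested, 0.05 for 8 endothelial, 0.28 for 6 fibroblast, -0.83 for 5 adipocyte, 0.08 for 4 Schwann cell and -0.69 for 5 erythroid genes. The summed adipocyte markers ranged from 90.7 to 139 TPM with NT siRNAs and from 68.3 to 123 TPM with *Uba1* siRNAs, and the fibroblast markers from 475 to 992 and from 598 to 1217 TPM. In the same order, the leukocyte markers ranged from 149 to 395 and from 155 to 452 TPM, the endothelial from 150 to 221 and from 165 to 207 TPM, the Schwann cell from 42.0 to 66.5 and from 32.5 to 76.9 TPM, and the erythroid from 1922 to 6998 and from 1841 to 3676 TPM. *Cidec* (lower) among the adipocyte genes and *Lum* (higher) among the fibroblast genes passed an unadjusted p of 0.05, and no marker passed the adjusted p. With the legs paired more passed an unadjusted p of 0.05. Higher were *Pdgfra*, *Col1a1* and *Lum* of the fibroblast list, *S100a8* of the leukocyte list and *S100b* of the Schwann cell list, beside 22.4% of all genes, and lower were *Adipoq*, *Cidec* and *Cfd* of the adipocyte list and *Hbb-bt* and *Alas2* of the erythroid list, beside 2.8% of all genes. None of these passed the adjusted p in the paired fit (limma, Benjamini-Hochberg). *Cd3e* of T cells and *Ucp1* of brown fat were at or near 0, at most 0.066 and 0.042 TPM. The part of these cells in the values of the members was not tested.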

How the data were processed

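RNA-seq data of both TA muscles of 4 mice were used. The authors made TruSeq libraries from total RNA with a kit that does not mark strand, trimmed and aligned the reads to GRCm39 in CLC Genomics Workbench, and deposited TPM per gene. The annotation and the treatment of reads that match several genes are not given in the sources used here, so members with processed pseudogene copies, and the 63 of 91 tested members that share exon bases with another gene, are uncertain to that extent (more than 50% of the exon bases for 4 of them). Depth cannot be recovered from TPM, and the number of muscles limits the precision.

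From the deposited TPM, log2(TPM + 1) was computed and tested with limma 3.58.1 (R 4.3.3; trend, no covariates, Benjamini-Hochberg over 11530 genes). All other computations, including the exact two-sided permutation tests, used Python 3.11.15 with SciPy 1.17.1. Simulated log2 values of 11530 genes were used to test the fit. Groups and replicate numbers came from the sample descriptions. Equal replicate numbers mark both legs of a mouse, and deviations of same-numbered muscles from their group means correlated at -0.00037, 0.20, 0.58 and 0.54. Genes named were, per complex, the 2 most and the least abundant of those tested and those with the highest and lowest log2FC. All of complex II, isoform pairs and untested members were named as well. Of these genes, 1 is not reported here. *Uqcrfs1*, *Ndufc1*, *Ndufa3*, *Cox5a*, *Cox5b*, *Cox6c*, *Cox7b*, *Cox7c*, *Cox7a2l* and the assembly factors were named in addition, after their values were seen. The members and lists were chosen with earlier results of these data known. Older symbols of complex V are used as in the table. The alternatives were another pseudocount, 2 other filters, 3 other scalings, the replicate block with and without median-ratio scaling, the Kruskal-Wallis test named in the methods of the study, and leaving out each muscle.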

Additional observations from a re-analysis of the deposited data

Results flagged for a closer look

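Among 70 groups of 4 muscles examined for the named members and the sums, 6 had a highest or lowest muscle that stood far from the other 3, where chance alone gives about 1 in 20 groups, or 3.5. The *Uba1* siRNA muscle of replicate 1 accounted for 4 of these. Its summed TPM over all members was 32803, with the other 3 between 29403 and 29530 TPM. Its sum over complex I was 9994 TPM, with the others between 8698 and 8763 TPM, and its sum over complex V was 8106 TPM, with the others between 7282 and 7405 TPM. *Ndufb2* was at 31.5 TPM in that muscle and between 25.0 and 25.8 TPM in the other 3. Among the NT muscles, *Sdha* was low in replicate 2 at 458 TPM (others 478 to 482 TPM) and *Uqcr11* was high in replicate 3 at 725 TPM (others 664 to 665 TPM).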

How the results depend on the processing

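The members' median log2FC minus the all-gene median was below 0 in all 16 alternatives with a fitted value (-0.11 to -0.02, the latter with quantile normalization, and -0.04 without *Uba1* siRNA replicate 3). The median itself ranged from -0.03 (without *Uba1* siRNA replicate 1) to 0.04 when a muscle was left out, and was -0.10 with median-ratio scaling, with or without the replicate block. For complex IV it was 0.0061 above the all-gene median with quantile normalization. For complex II it was above by 0.027 without a filter, 0.026 with quantile normalization and 0.033 without *Uba1* siRNA replicate 3. Members higher at an unadjusted p of 0.05 numbered 1 without a filter (10.9% of all genes), 2 after mitochondrial genes were taken out of the TPM (21.2%), 1 with the replicate block (22.4%), 2 by the Kruskal-Wallis test (17.5%) and 0 to 1 when a muscle was left out (10% to 17.7%). Members lower numbered 16 with median-ratio scaling (6.18% of all genes), 18 with the replicate block and that scaling (8.76%), 2 with quantile normalization (5.16%) and 1 to 2 when a muscle was left out (1.52% to 2.45%, with 2 members without *Uba1* siRNA replicate 1). No member passed the adjusted p (limma, Benjamini-Hochberg) in any alternative, and apart from the counts above the pairing of legs by the replicate block changed no call of a member. Of the 29 named members tested, 13 kept their side of the all-gene median in every alternative. The raw sign changed for 18 of the 29 with median-ratio scaling. Leaving out a muscle moved the difference in the log2 ratio between -0.0038 and 0.134 for *Cox4i2* to *Cox4i1*, -0.024 and 0.045 for *Cox7a1* to *Cox7a2*, -0.015 and 0.280 for *Ndufa4l2* to *Ndufa4*, and -0.032 and 0.035 for *Atp5g2* to *Atp5g3*, with sign changes in each. The cause of these changes was not tested.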
